A study of Homo sapiens with 12 samples.

Results

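Integrins are cell surface receptors made of an alpha and a beta chain that tie the extracellular matrix to the actin or keratin cytoskeleton. The alpha chain largely sets which ligand is bound, and the beta chain carries most of the contacts with proteins inside the cell. In breast epithelium the laminin receptors built from alpha 3, alpha 6, beta 1 and beta 4 hold basal cells on the basement membrane, and the alpha 6 beta 4 pair anchors hemidesmosomes. The 10 integrin chain genes described here, ITGA2, ITGA3, ITGA5, ITGA6, ITGA10, ITGAV, ITGB1, ITGB2, ITGB4 and ITGB5, were chosen as a named set of chains, out of 20044 genes with a probe on the array, and another 16 integrin chains on the array are described after them.

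Messenger RNA was measured on Illumina HumanHT-12 v4 arrays in MDA-MB-231, a triple-negative breast cancer line, and in MCF10A, a non-transformed line of breast epithelium. Both lines were transfected with mimics at 30 nM and harvested after 48 h. In each line 2 arrays carried RNA of cells given 5'isomiR-140-3p, 2 carried RNA of cells given hsa-miR-140-3p, and the control pair held 1 array of mimic-ctrl1 and 1 of mimic-ctrl2, which makes 12 arrays in 6 groups. The 2 arrays of each tested mimic were biological replicates, whereas the control arrays differ in the mimic they received, so the spread of a control pair also holds any difference between the control mimics. No array measured untransfected cells.

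The 5' end of a miRNA sets the seed (bases 2 to 8) that pairs with target transcripts. Both mimics are shown because the results set them against each other. The 5'isomiR starts 1 base later and ends 2 bases later than hsa-miR-140-3p, so the mimics differ at both ends and the comparisons do not separate these differences. The seeds are in capitals, and the sequences were read from RefSeq's miRNA records on GRCh38.p14.
hsa-miR-140-3p: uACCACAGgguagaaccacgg
5'isomiR-140-3p: aCCACAGGguagaaccacggac
The canonical miRNA has 21 bases and lies on the plus strand of chr16:69933142-69933162, while the 5'isomiR has 22 bases and lies at chr16:69933143-69933164. In the following hsa-miR-140-3p is called the canonical miRNA and 5'isomiR-140-3p the 5'isomiR. A transcript pairs with the canonical seed through CUGUGGU and with the shifted seed through CCUGUGG. Transcript sequences of the integrins were not searched for these matches here.

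All 10 chains were tested, through 1 probe each that lay above background on all 12 arrays, so none of their folds is a bound. Of 24 probes for these genes, 17 passed the filter on dim probes. Values below are log2 normalised intensities for 1 probe and can be compared between groups of a gene but not between genes. A gene was called where a group lay under 65% or more than 65% above the group it was set against, with an adjusted p under 0.05 in limma. Arrays were alike in signal, with median deposited intensities of 107.4 to 108.9 and 13005 to 14848 probes above background, and arrays of a group correlated at 0.981 to 0.995. Of 11 epithelial and basal markers 7 had a probe, of which DSP and SFN were above background on the MDA-MB-231 arrays and all 7, KRT5, KRT14 and CDH1 among them, on every MCF10A array. These are bulk samples, in which fewer cells of a kind and less RNA per cell cannot be told apart.

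By the limma rule above 4 chains were called with the 5'isomiR in each line, and 1 of them, ITGA6, was lower in both. In MDA-MB-231 the count of 4 includes ITGB4, whose call was lost in most other settings and without most single arrays. In MDA-MB-231 cells ITGA6 was called lower and ITGA10, ITGB2 and ITGB4 higher, 1 and 3 of the 10 chains, where 5.09% of all tested genes were called lower and 2.41% higher. In MCF10A cells ITGA6 was called lower and ITGA10, ITGAV and ITGB2 higher, again 1 and 3 of 10, where 7.34% of all genes were called lower and 5.25% higher. The share of chains called higher was 30%, and the median log2 fold change of the 10 chains was -0.06 in MDA-MB-231 and 0.09 in MCF10A, beside medians of 0.01 for all genes in both lines. With 10 members, 1 chain is 10% of the set. The set was chosen with earlier results of these data known, so its shares carry no test. Of the 5 other integrin chains that were tested, 0 were called higher in either line. Both 5'isomiR arrays lay below both controls for 1 chain and above them for 3 in MDA-MB-231, where this held for 25.5% and 25.8% of all genes, and for 3 and 4 chains in MCF10A, where it held for 30.0% and 30.7%.

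**Figure D1:**
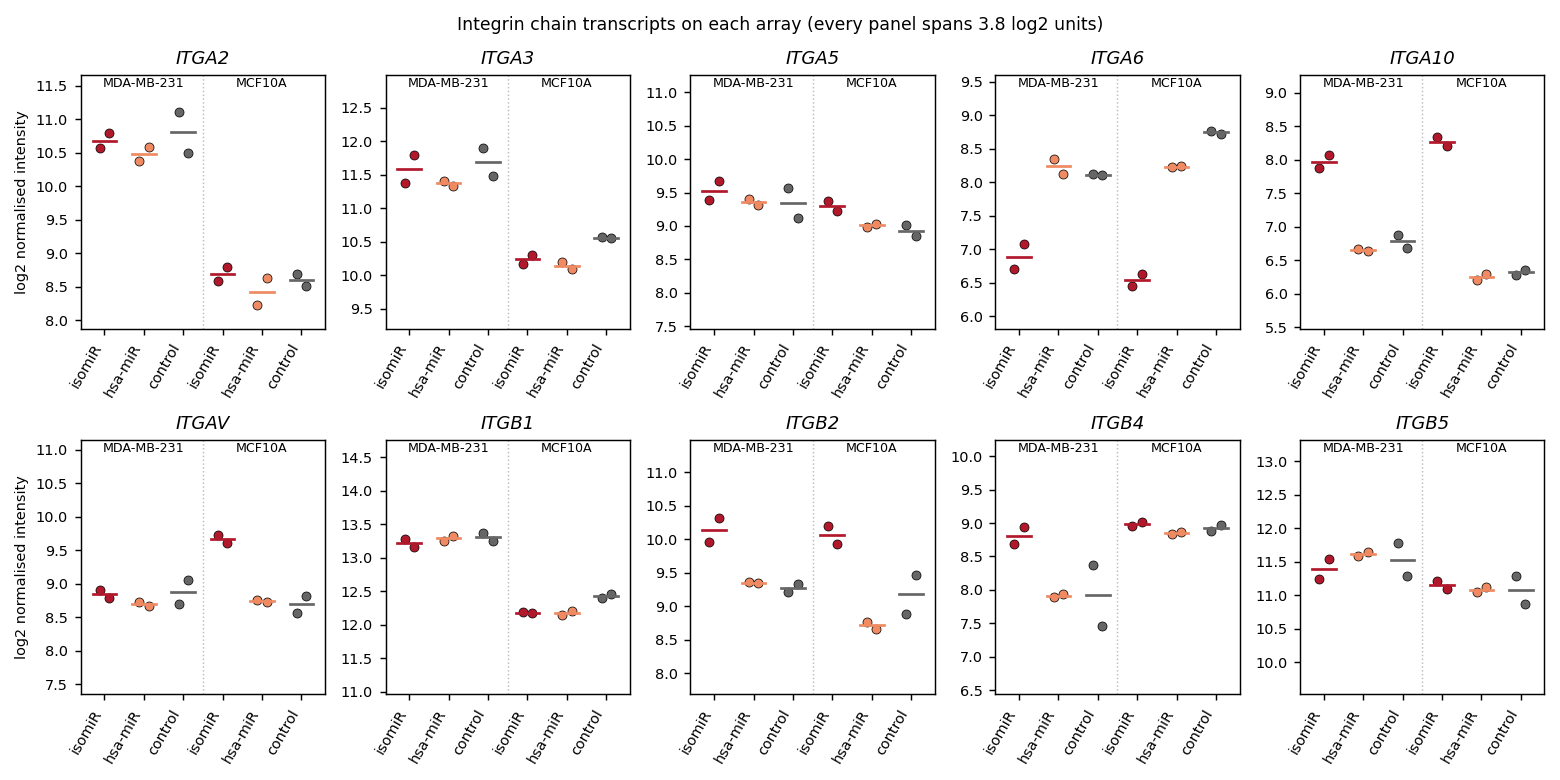
Log2 normalised intensity of the 10 integrin chains on each of the 12 arrays, by cell line and mimic, with points for arrays and lines for the means of 2 arrays. The 5'isomiR arrays lie below the others of their line for ITGA6 (6.45 to 7.07) and above them for ITGA10 (7.87 to 8.34) and ITGB2 (9.93 to 10.31), while ITGAV stands apart in MCF10A (9.61 and 9.73) and not in MDA-MB-231.

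ITGA6 encodes alpha 6, which pairs with beta 1 or beta 4 to bind laminin. In MDA-MB-231 it stood at 6.70 and 7.07 with the 5'isomiR, at 8.35 and 8.12 with the canonical miRNA and at 8.12 and 8.10 with the control mimics. In MCF10A it stood at 6.45 and 6.63 with the 5'isomiR, at 8.23 and 8.23 with the canonical miRNA and at 8.76 and 8.72 with the control mimics. The 5'isomiR arrays were the lowest of each line and did not overlap with any other array. Against control ITGA6 fell by 1.22 in MDA-MB-231 (log2, SE 0.15, adjusted p = 0.00076), to 42.8% of control, and by 2.21 in MCF10A (SE 0.15, adjusted p = 2.8e-05), to 21.7% of control. This was the 15th lowest fold change of 10491 genes in MCF10A and the 130th lowest in MDA-MB-231. The call held without any single array in both lines, with log2 values from -1.41 to -1.04 in MDA-MB-231 and from -2.30 to -2.12 in MCF10A. A second ITGA6 probe passed the filter but lay above background on 4 arrays, so that its log2 fold changes of -0.72 in MDA-MB-231 and -1.24 in MCF10A are not measured folds, and the remaining probe lay above background on 0 arrays.

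ITGB4 encodes beta 4, which pairs with alpha 6 and whose long tail binds plectin in hemidesmosomes. In MDA-MB-231 it stood at 8.68 and 8.94 with the 5'isomiR, at 7.89 and 7.94 with the canonical miRNA, and at 8.38 and 7.46 with mimic-ctrl1 and mimic-ctrl2. In MCF10A all arrays lay between 8.84 and 9.02, and the log2 fold change with the 5'isomiR was 0.07 (SE 0.24, adjusted p = 0.88). Both 5'isomiR arrays in MDA-MB-231 lay above the controls, yet the control mimics were 0.92 apart, a gap larger than that of 96.2% of tested genes. ITGB4 was higher by 0.89 there (SE 0.24, adjusted p = 0.04), and the call held without mimic-ctrl1 (1.35, adjusted p = 0.00094) and was lost without any of the other 11 arrays (adjusted p 0.051 to 0.2). Leaving out mimic-ctrl2 gave 0.43 (adjusted p = 0.087), so the size of this difference rests on the control pair. A second probe gave 0.63 in MDA-MB-231 and 0.17 in MCF10A.

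ITGA3 encodes alpha 3, which pairs with beta 1 as a receptor for laminins. In MDA-MB-231 its arrays were at 11.37 and 11.79 with the 5'isomiR, 11.41 and 11.32 with the canonical miRNA, and 11.90 and 11.48 with the control mimics. In MCF10A they were at 10.17 and 10.30 with the 5'isomiR, 10.20 and 10.09 with the canonical miRNA, and 10.57 and 10.55 with the control mimics. ITGA3 thus lay below both controls with either mimic in MCF10A, but no difference passed the test. The log2 fold changes were -0.11 and -0.32 with the 5'isomiR in MDA-MB-231 and MCF10A (adjusted p = 0.75 and 0.22), and -0.32 and -0.42 with the canonical miRNA in the same order of lines (adjusted p = 0.43 and 0.32).

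Among the collagen-binding chains, ITGA10 changed and ITGA2 did not pass the test. ITGA10 encodes alpha 10, a partner of beta 1 best known from chondrocytes. In MDA-MB-231 it stood at 7.87 and 8.07 with the 5'isomiR, at 6.67 and 6.63 with the canonical miRNA and at 6.87 and 6.69 with the control mimics. In MCF10A it stood at 8.34 and 8.20 with the 5'isomiR, at 6.20 and 6.30 with the canonical miRNA and at 6.28 and 6.36 with the control mimics. All 4 arrays of the 5'isomiR were above the other 8 arrays. ITGA10 rose by 1.19 (SE 0.12, adjusted p = 0.00043) in MDA-MB-231, 2.28-fold, and by 1.95 (SE 0.12, adjusted p = 2.3e-05) in MCF10A, 3.87-fold. It ranked 45th from the top of 10491 genes in MDA-MB-231 and 47th in MCF10A, the highest of the 10 chains in both lines, and the call held without any single array (1.09 to 1.29 in MDA-MB-231 and 1.88 to 2.02 in MCF10A). The array has 1 ITGA10 probe, so no second probe bears on it.

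ITGA2 encodes alpha 2 of the main collagen receptor of epithelia. It lay between 10.37 and 11.11 on the MDA-MB-231 arrays and between 8.22 and 8.79 on the MCF10A arrays, with overlapping groups in each line. Its log2 fold changes with the 5'isomiR were -0.12 in MDA-MB-231 (95% interval -0.61 to 0.36) and 0.09 in MCF10A (-0.39 to 0.57).

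The chains that recognise the RGD sequence of fibronectin and vitronectin were divided. ITGAV encodes alpha V, which pairs with several beta chains, beta 5 among them. In MCF10A it stood at 9.73 and 9.61 with the 5'isomiR, at 8.76 and 8.72 with the canonical miRNA and at 8.57 and 8.82 with the control mimics. In MDA-MB-231 it stood at 8.91 and 8.79 with the 5'isomiR, at 8.72 and 8.67 with the canonical miRNA and at 8.70 and 9.05 with the control mimics. The 5'isomiR arrays were apart from the rest in MCF10A and overlapped with the controls in MDA-MB-231. ITGAV rose by 0.98 (SE 0.14, adjusted p = 0.0015) in MCF10A, 1.97-fold, and the call held without any single array (0.85 to 1.11). In MDA-MB-231 the log2 fold change was -0.03 (SE 0.14, adjusted p = 0.94, 95% interval -0.35 to 0.30).

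ITGA5, alpha 5 of the fibronectin receptor, and ITGB5, the beta 5 chain that pairs with alpha V, were not called with either mimic. ITGA5 lay between 9.13 and 9.67 in MDA-MB-231 and between 8.85 and 9.37 in MCF10A, where both 5'isomiR arrays (9.37 and 9.23) were above both controls (9.01 and 8.85) with a log2 fold change of 0.37 (SE 0.16, adjusted p = 0.14). ITGB5 lay between 11.24 and 11.78 in MDA-MB-231 and between 10.87 and 11.29 in MCF10A. All 3 ITGB5 probes that passed the filter had log2 fold changes between -0.13 and 0.09 with the 5'isomiR over both lines.

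ITGB1 encodes beta 1, the common partner of alpha 2, alpha 3, alpha 5, alpha 6, alpha 10 and alpha V. It lay between 13.16 and 13.37 on the MDA-MB-231 arrays and between 12.15 and 12.46 on the MCF10A arrays. In MCF10A both mimics lay below both controls, with log2 fold changes of -0.25 for the 5'isomiR (SE 0.11, adjusted p = 0.14) and -0.25 for the canonical miRNA (SE 0.11, adjusted p = 0.35). Neither passed the test, and a second probe gave -0.24 and -0.07.

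ITGB2 encodes beta 2, best known as the beta chain of leukocyte integrins. In MDA-MB-231 it stood at 9.96 and 10.31 with the 5'isomiR, at 9.35 and 9.34 with the canonical miRNA and at 9.21 and 9.33 with the control mimics. In MCF10A it stood at 10.19 and 9.93 with the 5'isomiR, at 8.76 and 8.66 with the canonical miRNA and at 8.89 and 9.47 with the control mimics. The 5'isomiR arrays were the highest of each line. ITGB2 was higher by 0.86 (SE 0.20, adjusted p = 0.02) in MDA-MB-231 and by 0.88 (SE 0.20, adjusted p = 0.012) in MCF10A, and a second probe above background on all arrays gave 0.97 and 0.96 in the same order of lines. The call was lost in MDA-MB-231 without mimic-ctrl1 (0.81, adjusted p = 0.06) or the second 5'isomiR array (0.69, adjusted p = 0.14), and with replicate numbers as a block (0.78, adjusted p = 0.11). In MCF10A it was lost without mimic-ctrl1 (0.59, adjusted p = 0.056) or the first 5'isomiR array (0.75, adjusted p = 0.088).

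The alpha chains that join beta 2, ITGAL, ITGAM, ITGAX and ITGAD, lay above background on 0 arrays, all 4 of them. Of 13 leukocyte markers 12 had a probe, and 7 of these, with PTPRC, CD3E and CD4 among them, lay above background on 0 arrays. Between 3 and 5 were above background per array, and their summed level was 3432 to 3444 with the 5'isomiR against 3763 to 4195 with control mimics in MDA-MB-231, and in MCF10A 1915 to 2115 with the 5'isomiR against 1839 to 2855 with control mimics. Of the 4 leukocyte markers tested, 1 was called higher in MCF10A, where 5.25% of all genes were. This was CSF1R, a receptor of macrophages. It was not above background with the control mimics and at least 1.75-fold higher with the 5'isomiR (adjusted p = 0.018), and the call was lost without any of the 4 arrays of these groups (adjusted p 0.054 to 0.098). The macrophage markers CD68 and CD14 had log2 fold changes of -0.57 (adjusted p = 0.011) and -0.29 (adjusted p = 0.53) there, HLA-DRA had 0.55 (adjusted p = 0.016), and none of these was called. PECAM1, 1 of 6 endothelial markers, was at least 4.54-fold higher in MCF10A (adjusted p = 0.0011). These 5 genes were named after their values were seen. The part of these transcripts in the change of ITGB2 was not tested.

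**Figure D2:**
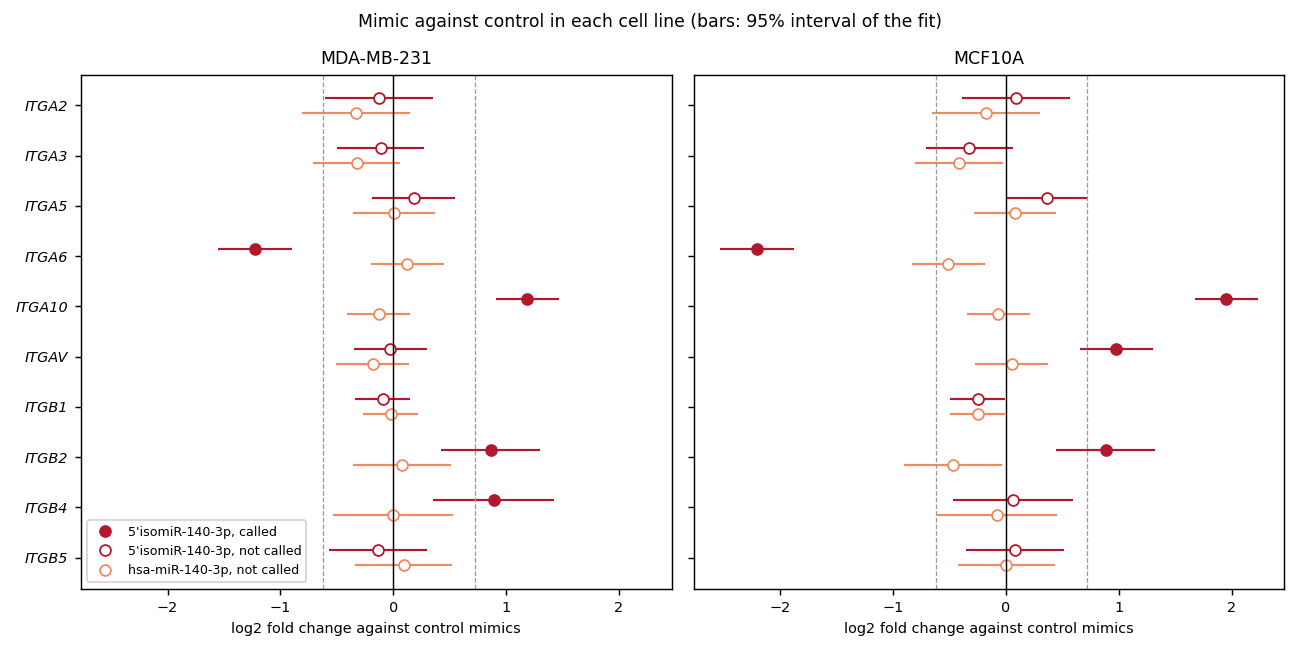
Log2 fold change of each integrin chain against the control mimics with its 95% interval, for the 5'isomiR and the canonical miRNA in MDA-MB-231 (left) and MCF10A (right). Filled points were called, dashed lines mark 65% of control and 65% above it, and with the canonical miRNA every point is open and lies between -0.51 and 0.13.

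None of the chains passed the same rule with the canonical miRNA. With the canonical miRNA 0 of 10 chains were called in either line by limma, where 1.02% of all genes were called lower and 0.191% higher in MDA-MB-231, and 0.724% lower and 0.143% higher in MCF10A. At an unadjusted p under 0.05, 0 chains passed in MDA-MB-231 and 4 in MCF10A (ITGA3, ITGA6, ITGB1 and ITGB2, each lower), beside 14.9% and 13.9% of all genes, and the methods' t-test with the fold limits called 0 in both lines. ITGA6 had the largest of these differences, -0.51 in MCF10A (SE 0.15, adjusted p = 0.15), while in MDA-MB-231 it was 0.13 (adjusted p = 0.76). ITGB2 in MCF10A was -0.47 (adjusted p = 0.32). Both arrays of the canonical miRNA lay below both controls for 2 chains and above them for 1 in MDA-MB-231, where all genes gave 22.2% and 21.4%, and for 5 and 0 chains in MCF10A, where all genes gave 21.8% and 22.8%. The 95% intervals for the canonical miRNA reached as low as -0.84 for ITGA6 and -0.90 for ITGB2 in MCF10A, past the lower fold limit.

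The direct comparison of the mimics called the same chains apart from ITGB4. With the 5'isomiR against the canonical miRNA in MDA-MB-231, ITGA6 was lower (-1.35, SE 0.15, adjusted p = 0.00067) and ITGA10 (1.32, SE 0.12, adjusted p = 0.00036) and ITGB2 (0.78, SE 0.20, adjusted p = 0.04) were higher, where 3.58% of all genes were called lower and 1.45% higher. In MCF10A, ITGA6 was lower (-1.70, SE 0.15, adjusted p = 9.7e-05), and ITGA10 (2.02, SE 0.12, adjusted p = 2.5e-05), ITGAV (0.93, SE 0.14, adjusted p = 0.0022) and ITGB2 (1.35, SE 0.20, adjusted p = 0.0015) were higher, where 6.43% were called lower and 5.21% higher. The arrays of the mimics did not overlap for any of these called chains. Counting all chains, both 5'isomiR arrays lay below both of the canonical miRNA for 2 and above them for 4 in MDA-MB-231, where all genes gave 28.7% and 30.8%, and for 1 and 5 in MCF10A, where they gave 33.1% and 32.5%.

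ITGB4 in MDA-MB-231 differed by 0.89 between the mimics (SE 0.24, adjusted p = 0.052), just outside the threshold. It passed the threshold without either control array (adjusted p = 0.0022), which leaves the fold as it is and alters the pooled spread. The ITGB2 call in MDA-MB-231 was lost without any of 8 arrays, those of both mimics in both lines (0.61 to 0.96). At 0.78 it was also lost with a looser or no filter on dim probes and with the replicate block (limma, adjusted p 0.055 to 0.085). With no background correction ITGB2 was at 0.71, within the fold limit, and was not called. For the chains that were not called in either line, the 95% intervals of the difference between mimics were -0.28 to 0.69 for ITGA2, -0.17 to 0.60 for ITGA3, -0.19 to 0.54 for ITGA5, -0.31 to 0.18 for ITGB1 and -0.66 to 0.20 for ITGB5 in MDA-MB-231. In MCF10A the intervals of these 5 chains lay within -0.35 and 0.74.

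The size of the 5'isomiR effect was then compared between the lines. The difference of the log2 fold changes, MDA-MB-231 minus MCF10A, was called for 3 of 10 chains, 1 higher and 2 lower, where 2.19% of all genes were called higher and 3.29% lower. For ITGA6 the difference was 0.98 (SE 0.21, adjusted p = 0.025), as the decrease was smaller in MDA-MB-231. For ITGA10 it was -0.76 (SE 0.18, adjusted p = 0.036), as the increase was smaller in MDA-MB-231, and for ITGAV it was -1.005 (SE 0.20, adjusted p = 0.022), with the increase seen in MCF10A. For ITGB4 it was 0.82 (SE 0.34, adjusted p = 0.2) and for ITGB2 -0.02 (SE 0.28, adjusted p = 0.98). The control level of ITGA10 was also higher in MDA-MB-231 (6.87 and 6.69) than in MCF10A (6.28 and 6.36). The difference of the canonical miRNA effect between lines was called for 0 of 10 chains, and for 0% of all genes, with 1 chain, ITGA6 (0.64, SE 0.21, adjusted p = 0.51), and 7.94% of all genes at an unadjusted p under 0.05.

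**Figure D3:**
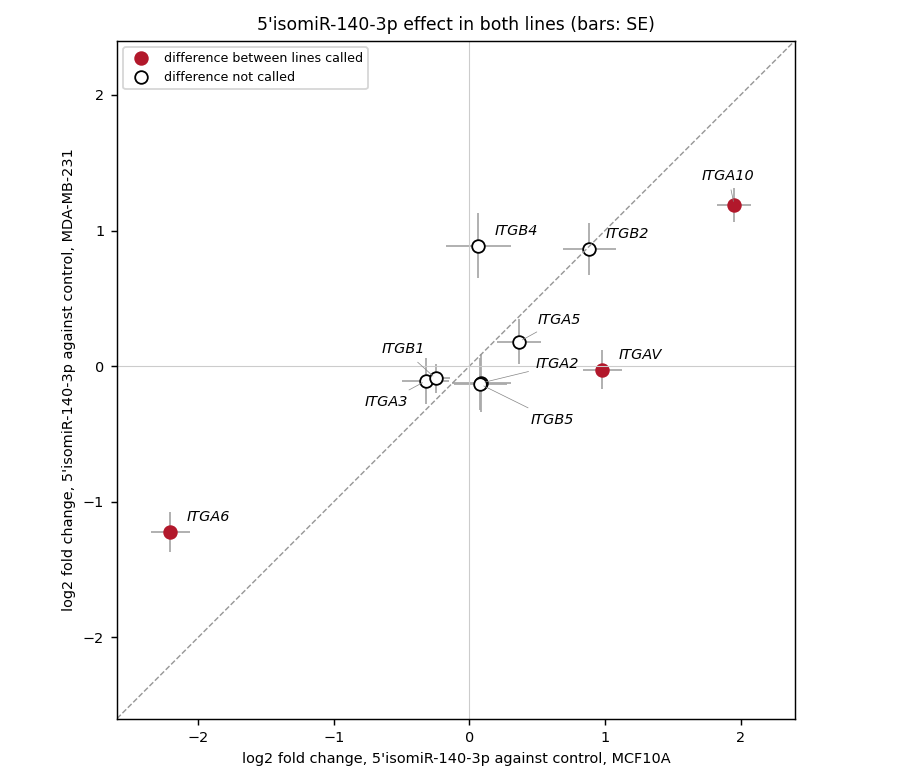
Log2 fold change of the 5'isomiR against control in MDA-MB-231 (vertical) and MCF10A (horizontal) for the 10 integrin chains, with SE bars and a dashed line of equal effect. Filled points mark the 3 chains whose difference between lines was called, ITGA6 (-1.22 and -2.21), ITGA10 (1.19 and 1.95) and ITGAV (-0.03 and 0.98).

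The calls of all 3 differences were lost without some of the arrays. The ITGA6 difference was lost without either control array or either 5'isomiR array of MCF10A, or without the second 5'isomiR array of MDA-MB-231 (0.80 to 1.07, adjusted p 0.051 to 0.099). That of ITGAV was lost without mimic-ctrl1 of MCF10A (-0.88, adjusted p = 0.051) or without any of the 4 arrays of the 5'isomiR (-1.06 to -0.95, adjusted p 0.059 to 0.088). That of ITGA10 was lost without any array other than mimic-ctrl2 of MDA-MB-231 (-0.86 to -0.67, adjusted p 0.055 to 0.14).

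Under control mimics the lines themselves differed in 5 chains. In MDA-MB-231 against MCF10A, 3 of 10 chains were called higher and 2 lower, where 20.5% of all genes were called higher and 19.9% lower. The control arrays were at 11.11 and 10.50 in MDA-MB-231 against 8.69 and 8.51 in MCF10A for ITGA2, which was 4.61-fold higher (log2 2.21, SE 0.22, adjusted p = 1.6e-05). They were at 11.90 and 11.48 against 10.57 and 10.55 for ITGA3, 2.20-fold higher (log2 1.13, SE 0.17, adjusted p = 0.00033), and at 13.37 and 13.25 against 12.41 and 12.46 for ITGB1, 1.84-fold higher (log2 0.88, SE 0.11, adjusted p = 8.3e-05). The arrays of the lines did not overlap for these 3 chains. Over all 10, the MDA-MB-231 controls lay below both MCF10A controls for 2 chains and above them for 5, where all genes gave 34.8% and 38.5%.

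Both chains of the hemidesmosome receptor were lower in MDA-MB-231 than in MCF10A under control mimics. ITGA6 differed by -0.63 (SE 0.15, adjusted p = 0.0041), at 64.5% just inside the fold limit, and was lost at -0.61 without mimic-ctrl1 of MCF10A. ITGB4 differed by -1.004 (SE 0.24, adjusted p = 0.005) and by -0.55 without mimic-ctrl2 of MDA-MB-231, which ended the call, while its second probe gave -0.87. ITGA10 was higher by 0.46 (SE 0.12, adjusted p = 0.0095) and stayed within the fold limit. All 7 tested epithelial and basal markers were lower in MDA-MB-231 as well, with a summed level of 402 to 490 there against 16120 to 19380 in MCF10A, and their part in the integrin levels was not tested. The deposited values had been normalised within each line, so levels between lines also rest on the quantile step over all arrays.

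The level of ITGA6 and ITGA10 over the 12 arrays, centred on the mean of each line, was then set against that of every other tested gene. The genes most like ITGA6 were RCL1 (Pearson's r = 0.982), MED30, a Mediator subunit (0.981), and RSU1, a component of the adhesion complex around integrin-linked kinase (0.981). Those most like ITGA10 were CYTH2, an exchange factor for ARF GTPases that act in membrane traffic (0.982), COQ5 (0.981), and PPP1R10 (0.977). They follow the 5'isomiR arrays, as the chains do. With the 5'isomiR the log2 fold changes in MDA-MB-231 and MCF10A were -0.67 and -1.03 for RCL1, -0.97 and -1.43 for MED30, -0.49 and -0.68 for RSU1, and 0.55 and 1.01 for CYTH2. These correlations describe 12 arrays that share the same 6 groups, and so carry no test.

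Of the 16 other integrin chains, 11 lay above background on 0 arrays, among them ITGB3, ITGB6 and ITGB8, which can pair with alpha V. The 5 tested were ITGA1, ITGA4, ITGA11, ITGAE and ITGB7. With the 5'isomiR 0 were called in MDA-MB-231 and 1 was called lower in MCF10A (7.34% of all genes), ITGB7, a partner of alpha 4 and alpha E. It was not above background on either 5'isomiR array and was at least 1.36-fold lower (adjusted p = 0.039), a call lost without the first 5'isomiR array, mimic-ctrl2 of MCF10A or any array of the canonical miRNA (adjusted p 0.055 to 0.25) and in 8 of 12 other processing settings. With the canonical miRNA 0 of the 5 were called in either line.

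The 7 lists of integrin pathway genes, the other chains included, held 101 tested genes. With the 5'isomiR in MDA-MB-231, 5.94% of them were called lower and 0.99% higher, beside 5.09% and 2.41% of all genes. In MCF10A 13.9% were called lower and 4.95% higher, beside 7.34% and 5.25% of all genes. Nothing is read from the counts of single lists.

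Of 15 tested genes for ligands other than laminins, 2 were called lower and 0 higher with the 5'isomiR in MDA-MB-231, and 3 lower and 1 higher in MCF10A, where all genes gave 5.09% and 2.41% in MDA-MB-231 and 7.34% and 5.25% in MCF10A. COL4A1, a chain of type IV collagen, fell by 1.001 in MDA-MB-231 (SE 0.17, adjusted p = 0.0052) and in MCF10A the log2 fold change was -2.42 (SE 0.17, adjusted p = 3.7e-05), and these calls held without any single array. In MCF10A CCN1, a matrix protein bound by alpha V and alpha 6 integrins, fell by 1.35 and THBS1, thrombospondin 1, by 1.12, while MFGE8, an RGD protein, rose by 1.08 (adjusted p = 0.025, 0.023 and 0.0011). In MDA-MB-231 these 3 genes had log2 fold changes of 0.36, 0.50 and -0.25 and were not called. ICAM2, a ligand of beta 2 integrins, fell by 0.72 in MDA-MB-231 (adjusted p = 0.0063) and was named after its values were seen. The list's median was 0.09 in MDA-MB-231 and -0.06 in MCF10A, close to that of all genes.

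The CCN1 call was lost without mimic-ctrl2 (-0.61) and without the first (-1.23) or second (-1.46) 5'isomiR array of MCF10A. It was also lost in 4 of 12 other settings. The CCN1 controls in MCF10A had a standard deviation of 1.04, so the size of its fall rests on the control pair. THBS1 was lost without mimic-ctrl1, mimic-ctrl2 or the first 5'isomiR array of MCF10A (-1.22 to -0.88, adjusted p 0.055 to 0.15), and ICAM2 without the second 5'isomiR array of MDA-MB-231 (-0.56).

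Of 8 tested laminin chains and hemidesmosome partners, 0 were called in MDA-MB-231 and 1 lower and 1 higher in MCF10A with the 5'isomiR, where 7.34% and 5.25% of all genes were called. DST, whose epithelial form BPAG1e links keratin to alpha 6 beta 4, was lower by 0.95 in MCF10A (limma, SE 0.18, adjusted p = 0.0061). It was above background on 1 of the 2 5'isomiR arrays there, and the call was lost without the first of them (-0.70). With no background correction (-0.46) and on the deposited scale (-0.47) DST stayed within the fold limit and was not called. LAMB2, the beta 2 chain of laminin, was not above background with the control mimics and at least 1.68-fold higher with the 5'isomiR (adjusted p = 0.01), lost without the first 5'isomiR array (adjusted p = 0.082) or mimic-ctrl1 (adjusted p = 0.055). With no background correction (0.40) and on the deposited scale (0.37) LAMB2 in MCF10A also stayed within the fold limit and was not called. DST was above background on 0 arrays of MDA-MB-231.

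Of 25 tested activators and adaptors, which act inside the cell, 2 were called lower and 0 higher in MDA-MB-231, where all genes gave 5.09% and 2.41%. In MCF10A 5 were called lower and 1 higher, where all genes, of which more were lower than higher too, gave 7.34% and 5.25%. The list had medians of -0.02 and -0.21 beside 0.01 for all genes in both lines. RAP1B, a small GTPase that activates integrins through talin, was not above background on any 5'isomiR array, and was at least 1.62-fold lower in MDA-MB-231 (adjusted p = 0.0012) and at least 1.84-fold lower in MCF10A (adjusted p = 0.00024). FERMT1, kindlin-1 of epithelial cells, fell by 1.08 (adjusted p = 0.00077) and TNS4, a tensin that binds beta chains, by 1.05 (adjusted p = 0.0002) in MCF10A. LPXN, a paxillin relative, fell by 1.48 there (adjusted p = 0.014). That call was lost without either 5'isomiR array (-1.52 and -1.44) and in 4 of 12 other settings. The LPXN controls in MCF10A had a standard deviation of 0.93, so the size of this fall rests on the control pair. The calls of RAP1B, FERMT1 and TNS4 held without any single array. With no background correction and on the deposited scale, RAP1B in MDA-MB-231 (-0.56 and -0.58) and TNS4 in MCF10A (-0.50 in both) stayed within the fold limit and were not called.

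CIB1 and FERMT2 were named after their values were seen, to complete these counts. CIB1, which binds integrin tails, fell by 0.74 in both lines (adjusted p = 0.0093 in MDA-MB-231 and 0.0055 in MCF10A). FERMT2, kindlin-2, rose by 0.90 in MCF10A (adjusted p = 0.0041), opposite to FERMT1. CIB1 was lost without mimic-ctrl1 in MDA-MB-231 (-0.60) and MCF10A (-0.58) and without either 5'isomiR array in MDA-MB-231 (adjusted p = 0.066 and 0.054), and FERMT2 was lost without mimic-ctrl1 of MCF10A (0.69).

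Of 19 tested adhesion kinases and their scaffolds, 2 were called lower with the 5'isomiR in MDA-MB-231, SRC (-0.67, adjusted p = 0.013) and ARHGEF7, a partner of PAK kinases (-0.66, adjusted p = 0.019). In MCF10A 0 were called lower and 1 higher, PTK2B, a kinase related to focal adhesion kinase (0.91, adjusted p = 0.034). All genes gave 5.09% lower in MDA-MB-231 and 7.34% lower and 5.25% higher in MCF10A. With the canonical miRNA 2 were called lower in MDA-MB-231, PAK2 (-0.91, adjusted p = 0.026) and YES1 (-0.77, adjusted p = 0.025), which were named after their values were seen, and 0 in MCF10A. PAK2 and YES1 were the only called genes of the 7 pathway lists with the canonical miRNA against control, where 1.02% of all genes were called lower in MDA-MB-231. They were lost without either array of the canonical miRNA in MDA-MB-231 (adjusted p 0.12 to 0.2) or either 5'isomiR array of MCF10A (adjusted p 0.051 to 0.055), and PAK2 also without mimic-ctrl2 or either 5'isomiR array of MDA-MB-231 (adjusted p 0.053 to 0.057). SRC was lost without mimic-ctrl1 (-0.59) or the first 5'isomiR array of MDA-MB-231 (-0.58), ARHGEF7 without either 5'isomiR array (adjusted p = 0.088 and 0.1), and PTK2B without mimic-ctrl1 (0.52) or either 5'isomiR array of MCF10A (adjusted p = 0.087 and 0.16) and in 8 of 12 other settings.

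Of 13 tested tetraspanins and surface partners, 0 were called lower and 1 higher with the 5'isomiR in MDA-MB-231, TSPAN1 (1.29, adjusted p = 0.04). There 5.09% of all genes were called lower and 2.41% higher. TSPAN1 was above background on 1 of the 2 control arrays of MDA-MB-231, and its call was lost in 6 of 12 other settings. In MCF10A CAV1, caveolin-1, fell by 0.84 (adjusted p = 0.0022), SLC3A2, the CD98 heavy chain that binds beta tails, fell by 0.69 (adjusted p = 0.024), and TSPAN14 rose by 0.79 (adjusted p = 0.012), 2 lower and 1 higher where all genes gave 7.34% and 5.25%. Of 16 tested genes of integrin traffic 0 were called in MDA-MB-231 and 2 were lower in MCF10A, the endocytic adaptor DAB2 (at least 1.08-fold, since it was not above background on the 5'isomiR arrays, adjusted p = 0.014) and RAB21, which carries integrins into endosomes (-0.74, adjusted p = 0.04, lost in 9 of 12 other settings). Of all genes 7.34% were called lower in MCF10A. The CAV1 call held without any single array. The others were lost without 2 to 6 arrays. SLC3A2 was lost without mimic-ctrl2 (-0.46) or either 5'isomiR array (-0.63 and -0.75), and TSPAN14 without either 5'isomiR array (0.80 and 0.79). DAB2 was lost without mimic-ctrl2 (-0.64) or the first 5'isomiR array (-0.54), and in 6 of 12 other settings. It was above background on 1 of the 2 control arrays of MCF10A. RAB21 was lost without mimic-ctrl2 (-0.49) or the second 5'isomiR array (-0.51) of MCF10A. It was also lost without any 5'isomiR or canonical miRNA array of MDA-MB-231. TSPAN1 was lost without mimic-ctrl2 (1.02), either 5'isomiR array or either array of the canonical miRNA of MDA-MB-231.

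**Figure D4:**
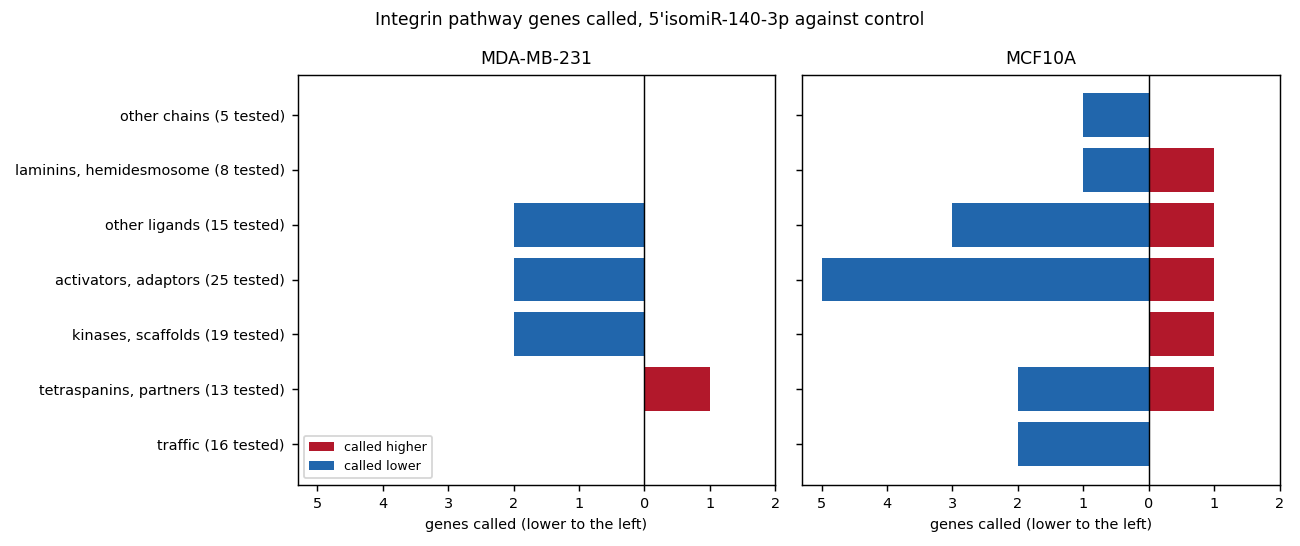
Number of genes of 7 integrin pathway lists called lower (left of 0) or higher (right of 0) with the 5'isomiR against control, in MDA-MB-231 (left panel) and MCF10A (right panel), with the number tested beside each name. In MDA-MB-231 6 of 101 genes were called lower and 1 higher (5.09% and 2.41% of all genes), and in MCF10A 14 lower and 5 higher (7.34% and 5.25% of all genes).

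Markers of cell identity, named after their values were seen, moved with the 5'isomiR in MCF10A beside these genes. KRT14, a basal keratin, fell by 1.44 (adjusted p = 0.00029), SFN by 0.90 (adjusted p = 0.0026) and SNAI2, a transcription factor of basal and mesenchymal cells, by 1.04 (adjusted p = 0.0016), while CDH1, E-cadherin, rose by 1.16 (adjusted p = 0.00053), and these calls held without any single array. Of the 7 tested epithelial and basal markers 2 were called lower and 1 higher, where all genes gave 7.34% and 5.25%. The median of these 7 was 0.55, beside 0.01 for all genes. DSC3 (0.82, adjusted p = 0.07), DSP (0.68, adjusted p = 0.026), CDH3 (0.55, adjusted p = 0.029) and KRT5 (-0.14, adjusted p = 0.47) were not called. Of the 7 tested mesenchymal markers SNAI2 alone was called, where 7.34% of all genes were called lower. The median of the mesenchymal markers was -0.05, beside 0.01 for all genes. With the canonical miRNA KRT14 fell by 0.96 (adjusted p = 0.029), a call lost without any of 9 arrays (adjusted p 0.052 to 0.18). All 7 detected epithelial and basal markers stayed above background, with a summed level of 12870 to 13210 with the 5'isomiR, 11550 to 11710 with the canonical miRNA and 16120 to 19380 with the control mimics. Without KRT14, a sum taken after the values were seen, these levels were 10330 to 10360 with the 5'isomiR, 7568 to 8130 with the canonical miRNA and 9807 to 10900 with the control mimics.

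The fibroblast markers DCN, decorin, and LUM, lumican, both matrix proteoglycans, were the 2 tested of 7. Both were called lower with the 5'isomiR in MCF10A, where 7.34% of all genes were. DCN fell by 0.87 (adjusted p = 0.0043). LUM was not above background with either mimic, and was at least 1.39-fold lower with the 5'isomiR (adjusted p = 0.00038) and at least 1.27-fold lower with the canonical miRNA (adjusted p = 0.0071). The calls with the 5'isomiR held without any single array, and LUM with the canonical miRNA was lost without either of its arrays (-1.42 and -1.54). With no background correction and on the deposited scale LUM was not called with the 5'isomiR (-0.59 and -0.57) or the canonical miRNA (-0.61 and -0.59). With the canonical miRNA it was also lost when MCF10A was fitted alone (limma, adjusted p = 0.076) and with the replicate block (adjusted p = 0.092). The summed level of the 7 fibroblast markers was 2052 to 2128 with the 5'isomiR, 2703 to 2767 with the canonical miRNA and 3329 to 4155 with the control mimics, while COL1A1, COL3A1, PDGFRA and THY1 lay above background on 0 arrays. With the 5'isomiR in MDA-MB-231 0 of 2 fibroblast markers, 0 of 7 tested epithelial markers and 0 of 7 mesenchymal markers were called. There 5.09% of all genes were called lower and 2.41% higher. The part of all these markers in the integrin changes was not tested.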

How the data were processed

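The authors deposited intensities of Illumina HumanHT-12 v4 arrays on a linear scale, normalised between the arrays of a line by a method not given in the sources used here, with no background subtracted. A second table of 24 columns whose names match no sample was not used. Of 47323 probes, 4 with missing values were left out, and the platform annotation names 1 gene for 30111 probes, several for 8 and none for 17200. Background correction (normexp, offset 16) took 457 olfactory receptor probes as negative controls, followed by quantile normalisation over 12 arrays and log2. Probes had to exceed the 0.99 quantile of the olfactory probes on at least 2 arrays, and each gene was represented by its brightest probe. limma 3.58.1 in R 4.3.3 fitted 6 group means with 6 residual degrees of freedom, a prior of 3.79, and Benjamini-Hochberg adjustment over 10491 genes. A gene not above background on any array of a group was given a fold bound, the brighter mean against the background level. Intervals are 95% intervals of the fit.

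The members, lists and tests were chosen with earlier results of these data known. All members were named, with up to 4 called genes of each list by size and the 3 genes most like ITGA6 and ITGA10. Alternatives were other background, scaling, filter and probe choices, separate fits, trended moderation, no fold limit, the methods' t-test, a replicate block and each array left out. Replicate numbers did not pair samples (correlation of deviations 0.02 in MCF10A and -0.02 in MDA-MB-231). The self-test ran on simulated data.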

Additional observations from a re-analysis of the deposited data

Results flagged for a closer look

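The effect of 5'isomiR-140-3p differed between the lines for 3 integrin chains by the test of the difference itself (limma, MDA-MB-231 minus MCF10A, n = 2 arrays a group). For ITGA6 the difference of log2 fold changes was 0.98 (adjusted p = 0.025), from -1.22 in MDA-MB-231 and -2.21 in MCF10A. For ITGA10 it was -0.76 (adjusted p = 0.036), from 1.19 and 1.95, and for ITGAV -1.005 (adjusted p = 0.022), from -0.03 and 0.98. Groups of 2 arrays are too small to look for a single array that stands apart.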

How the results depend on the processing

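No call of an integrin chain changed direction. The count of chains called with 5'isomiR-140-3p against control was 4 in each line. It was 0 with the methods' t-test after adjustment in both lines and 3 without adjustment, 2 in MDA-MB-231 with the replicate block, and 2 to 3 in MDA-MB-231 and 3 to 4 in MCF10A without single arrays. Against hsa-miR-140-3p, the adjusted t-test gave 0 in place of 3 in MDA-MB-231 and of 4 in MCF10A, and single arrays 2 to 4 in MDA-MB-231. Between lines under control mimics the adjusted t-test gave 1 in place of 5, and single arrays 4 to 5. The 3 differences of the 5'isomiR effect became 1 with no background correction, 0 with the replicate block (ITGA6 0.99, adjusted p = 0.13, ITGAV -1.003, adjusted p = 0.12, ITGA10 -0.81, adjusted p = 0.15), and 0 to 3 without single arrays. The ITGA10 difference was also lost on the deposited scale (-0.48). At -0.76 it was lost with a looser or no filter on dim probes and with trended moderation (limma, adjusted p 0.057 to 0.065). The replicate block, which follows the numbers in the sample titles, also took the calls of ITGB2 (0.78) and ITGB4 (0.81, adjusted p = 0.18) in MDA-MB-231. Both control arrays of a line bear number 1, so the block pairs no control with a second replicate. It thereby also shifts folds against control, as for ITGB2 in MDA-MB-231 from 0.86 to 0.78. Over all genes it gave 418 calls in place of 787 with 5'isomiR-140-3p against control in MDA-MB-231, 9 and 1 in place of 127 and 91 for the canonical miRNA in MDA-MB-231 and MCF10A, and 129 in place of 575 for the difference of the 5'isomiR effect. With no background correction, calls with 5'isomiR-140-3p against control were 437 in MDA-MB-231 and 651 in place of 1321 in MCF10A, and with no fold limit 1209 and 2184. On the deposited scale the mimics differed in MDA-MB-231 in 233 genes lower and 53 higher, in place of 376 and 152. The ITGB4 call in MDA-MB-231 was lost in 8 of 12 alternatives, and the lower level of ITGA6 in MDA-MB-231 than MCF10A in 4 (-0.59 to -0.50). Of 26 pathway list calls with 5'isomiR-140-3p against control, all 26 were lost with the adjusted t-test, 8 of them in that setting alone, and 13 with no background correction. RAB21 was lost in 9 of 12 alternatives and ITGB7 and PTK2B in 8. The calls of ITGA6 and ITGA10 against control and against hsa-miR-140-3p were lost with the adjusted t-test alone. With 2 arrays a group and no raw detection values tied to samples, small changes and chains near background could not be resolved.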

Other observations

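The control mimics themselves differed for some chains. In MDA-MB-231, mimic-ctrl2 minus mimic-ctrl1 was -0.92 for ITGB4, -0.62 for ITGA2, -0.49 for ITGB5 and -0.44 for ITGA5, and in MCF10A it was 0.58 for ITGB2 and -0.42 for ITGB5. For ITGA6 the difference was -0.02 in MDA-MB-231 and -0.04 in MCF10A. In size these gaps exceeded those of 96.2% of tested genes for ITGB4 and 5.02% for ITGA6 in MDA-MB-231. With 1 array of each control mimic in a line, the difference was not tested.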
